A study of Homo sapiens with 4 samples.

Results

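The genes of cholesterol and fatty acid synthesis were followed in Hs746T cells, an established gastric carcinoma line that carries both MET amplification and skipping of a MET exon (a receptor tyrosine kinase for hepatocyte growth factor). The set held 34 genes of the 19740 named on the arrays and was chosen by gene name, all probes for a gene being found by its RefSeq accession or symbol. It consisted of 18 enzymes of the sterol branch, 5 genes that control the sterol regulatory element-binding proteins (SREBPs), the sterol carrier STARD4, 7 enzymes of the fatty acid branch and 3 targets of the liver X receptors (LXRs). Every gene had at least 1 probe, and 6 genes had more than 1.

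Total RNA from 4 cultures was hybridized to single-color Agilent human gene expression arrays, 1 array for each condition and 4 in all. The cells received DMSO as the control of the inhibitor, the MET kinase inhibitor PHA665752, a scrambled control siRNA (sc siRNA) or MET siRNA, for which the study used the most effective of the sequences it tested. All cells were Hs746T, which the study maintained in DMEM with fetal bovine serum, a source of lipoproteins. By its methods, siRNA was delivered with the lipid reagent Lipofectamine in Opti-MEM, which was later replaced by complete medium. The siRNA cultures thus also differed from the DMSO and PHA665752 cultures in medium and lipid reagent. The dose and duration of PHA665752 for these arrays are not given in the sources used here, and a transfection without siRNA was not analysed here.

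Cholesterol is built from acetyl-CoA by way of mevalonate, isoprenoid diphosphates, squalene and lanosterol, and the enzymes of this route are switched on together by SREBP2 when sterols in the endoplasmic reticulum are low. SREBP1 acts mainly on the enzymes that make, elongate and desaturate fatty acids. Both precursors are carried to the Golgi by SCAP for cleavage and are held back by the INSIG proteins when sterols are plentiful, whereas LXRs respond to oxysterols and switch on the pumps that export cholesterol. SREBPs act at promoters beside the factor NF-Y, which binds the pentamer CCAAT.

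The promoters of 6 member genes are shown as examples. They are 4 of the sterol enzymes with log2 ratios near or above 1 after PHA665752, the SREBP2 gene itself, and the fatty acid elongase with the lowest ratio. SC5D (1.32) and DHCR7 (1.07) also had ratios above 1 and are not shown. Each sequence is the 250 bases before the RefSeq start site in GRCh38.p14, written 5′ to 3′ on the gene's own strand, with capitals marking the pentamer CCAAT on either strand (ATTGG when on the opposite one) and the sterol regulatory element-type letters TCACNCCAC. The windows are chr11:65111622-65111871 (plus strand), chr21:46228775-46229024 (minus), chr16:88663092-88663341 (minus), chr4:165327419-165327668 (plus), chr22:41832855-41833104 (plus) and chr4:110198616-110198865 (minus).
TM7SF2 promoter: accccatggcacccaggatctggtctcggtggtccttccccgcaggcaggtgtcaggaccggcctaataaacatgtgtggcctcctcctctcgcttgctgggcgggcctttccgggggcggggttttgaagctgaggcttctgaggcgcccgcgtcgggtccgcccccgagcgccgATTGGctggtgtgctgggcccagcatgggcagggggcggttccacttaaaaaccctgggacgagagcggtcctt
LSS promoter: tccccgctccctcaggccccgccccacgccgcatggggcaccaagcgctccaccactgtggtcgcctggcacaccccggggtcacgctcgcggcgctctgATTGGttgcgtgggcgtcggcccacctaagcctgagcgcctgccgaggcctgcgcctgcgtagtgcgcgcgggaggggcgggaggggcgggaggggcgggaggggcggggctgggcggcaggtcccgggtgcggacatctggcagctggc
MVD promoter: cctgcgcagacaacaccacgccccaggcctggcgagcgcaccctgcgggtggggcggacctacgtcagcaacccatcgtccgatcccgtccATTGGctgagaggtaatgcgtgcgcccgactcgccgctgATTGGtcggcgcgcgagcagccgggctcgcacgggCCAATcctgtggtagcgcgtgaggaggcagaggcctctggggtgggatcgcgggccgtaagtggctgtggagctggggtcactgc
MSMO1 promoter: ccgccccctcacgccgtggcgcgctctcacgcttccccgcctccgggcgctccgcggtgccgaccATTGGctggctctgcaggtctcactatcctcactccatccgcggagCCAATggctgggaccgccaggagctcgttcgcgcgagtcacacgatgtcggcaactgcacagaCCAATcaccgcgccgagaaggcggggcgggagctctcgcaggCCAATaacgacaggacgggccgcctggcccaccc
SREBF2 promoter: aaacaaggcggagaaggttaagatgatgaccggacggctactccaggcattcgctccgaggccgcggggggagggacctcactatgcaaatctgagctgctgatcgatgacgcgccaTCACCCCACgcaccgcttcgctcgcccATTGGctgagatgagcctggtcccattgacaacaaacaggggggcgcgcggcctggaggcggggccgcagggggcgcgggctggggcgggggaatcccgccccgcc
ELOVL6 promoter: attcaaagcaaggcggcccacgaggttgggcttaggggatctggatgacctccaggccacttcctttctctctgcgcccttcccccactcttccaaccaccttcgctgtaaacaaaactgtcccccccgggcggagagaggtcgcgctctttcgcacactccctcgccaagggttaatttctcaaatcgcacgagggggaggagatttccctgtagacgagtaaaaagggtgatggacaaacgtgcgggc

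The TM7SF2 and LSS windows held 1 CCAAT each, MVD held 3, MSMO1 held 4 and ELOVL6 held none. Of the enzymes not shown, SC5D held 1 in each of its windows, and DHCR7 held 2 in 1 window and none in the other. EBP and NSDHL, with ratios below 0 after PHA665752, held 3 and 5, and CYP51A1, with a ratio above 0, held none. Over the sterol branch, 13 of the 15 genes with a promoter in the table (86.7%) had at least 1 CCAAT, beside 37.0% of all 27305 genes with a promoter, and the fatty acid branch had it in 3 of 6. The sterol regulatory element-type letters were found in SREBF2 alone among 29 member genes, 133 to 125 bases before its start, and in 1.09% of all genes. A match is a description of the letters and not a binding site, and both motifs were searched on both strands with 0 mismatches. The 2 motifs share no overlap in the windows shown.

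MET itself, the target of both treatments, was read by a probe with 10 spots and gave a signal of 221451 on the DMSO array, 100492 on PHA665752, 190010 on sc siRNA and 77854 on MET siRNA. Its log2 ratio was -0.93 for PHA665752 over DMSO and -1.33 for MET siRNA over sc siRNA, so the array labelled MET siRNA had less MET RNA than its control. All 4 arrays lay on 1 slide, and between 61.1% and 68.2% of 34127 probes were well above background, the lowest share on MET siRNA, where 5.58% of spots carried an outlier mark against 1.69% to 2.21% elsewhere. Of 6 epithelial markers, 6 were above background on every array except MET siRNA, where CDH1 was not (33.0, 30.2, 13.1 and 10.4 in the order above); 2 of 3 endothelial markers also were, KDR being at background on all arrays. Of 4 mesenchymal markers, 4 were above background on DMSO and PHA665752, and VIM had no usable spot on the siRNA arrays. The summed signal of the endothelial list went from 1938 on DMSO to 374 on PHA665752, mostly through PECAM1, and from 1107 on sc siRNA to 859 on MET siRNA. That of the epithelial list went from 131987 to 80935 and from 106787 to 93980, mostly through CLDN4 and KRT18. After PHA665752 their log2 ratios were -0.56 and -0.55, whereas EPCAM (0.54), KRT8 (0.34), CDH1 (0.08) and KRT19 (0.03) were not lower. The sums are of unscaled signals, so the brightest probes weigh most. In the mesenchymal list FN1 had a fold of 3.89, CDH2 of 1.2, VIM of 1.1 and ZEB1 of 0.602 for PHA665752 over DMSO. The part of these markers in the results below was not tested. Each array read RNA of a whole culture, so a change in the share of cells that use a gene and a change in RNA per cell cannot be told apart.

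With 1 array for each condition there is no replicate check and no test, and differences between the 2 control arrays serve as the measure of spread. Over 14149 genes the log2 ratio of sc siRNA over DMSO had a robust SD of 0.27, which includes any effect of transfection, and repeat spots within an array would give a ratio of single spots an SD of 0.08. Signals below are the processed signals of the scanner software in linear units, whereas ratios were taken after each array was scaled to its 75th percentile, which adds 0.21 to the log2 ratio of PHA665752 over DMSO, -0.05 to that of MET siRNA over sc siRNA and 0.25 to that of sc siRNA over DMSO. A gene was counted as higher or lower when its ratio passed 2-fold, a log2 ratio of 1. Signals are compared between arrays only, since different probes are not on 1 scale.

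After PHA665752, genes of the sterol branch had ratios above those of most genes. The median log2 ratio of its 18 enzymes was 0.60, against 0.08 over all 14811 genes with a ratio. Of the 18, 15 were above 0, against 55.0% of all genes. Scaling to the 50th percentile gave a branch median of 0.35 and 12 of 18 above 0, with the median of all genes at -0.17. Under either scaling, 14 of 18 lay above the median of all genes. TM7SF2, MVD, SC5D, LSS and DHCR7 passed 2-fold upward, 27.8% of the branch, against 13.1% of all genes, and no enzyme of the branch passed it downward. With arrays scaled to their 50th percentile 3 of the 5 passed, LSS being at 0.99 and DHCR7 at 0.83. Over the whole set of 33 genes with a ratio, 5 were higher (15.2%) and 2 were lower (6.06%, INSIG2 and ELOVL6, against 7.95% of all genes), shares near the background. The inhibitor array differed widely from DMSO throughout: 10109 of 14811 genes and 13 of the 18 sterol enzymes had ratios beyond 0.27 in either direction.

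**Figure D1:**
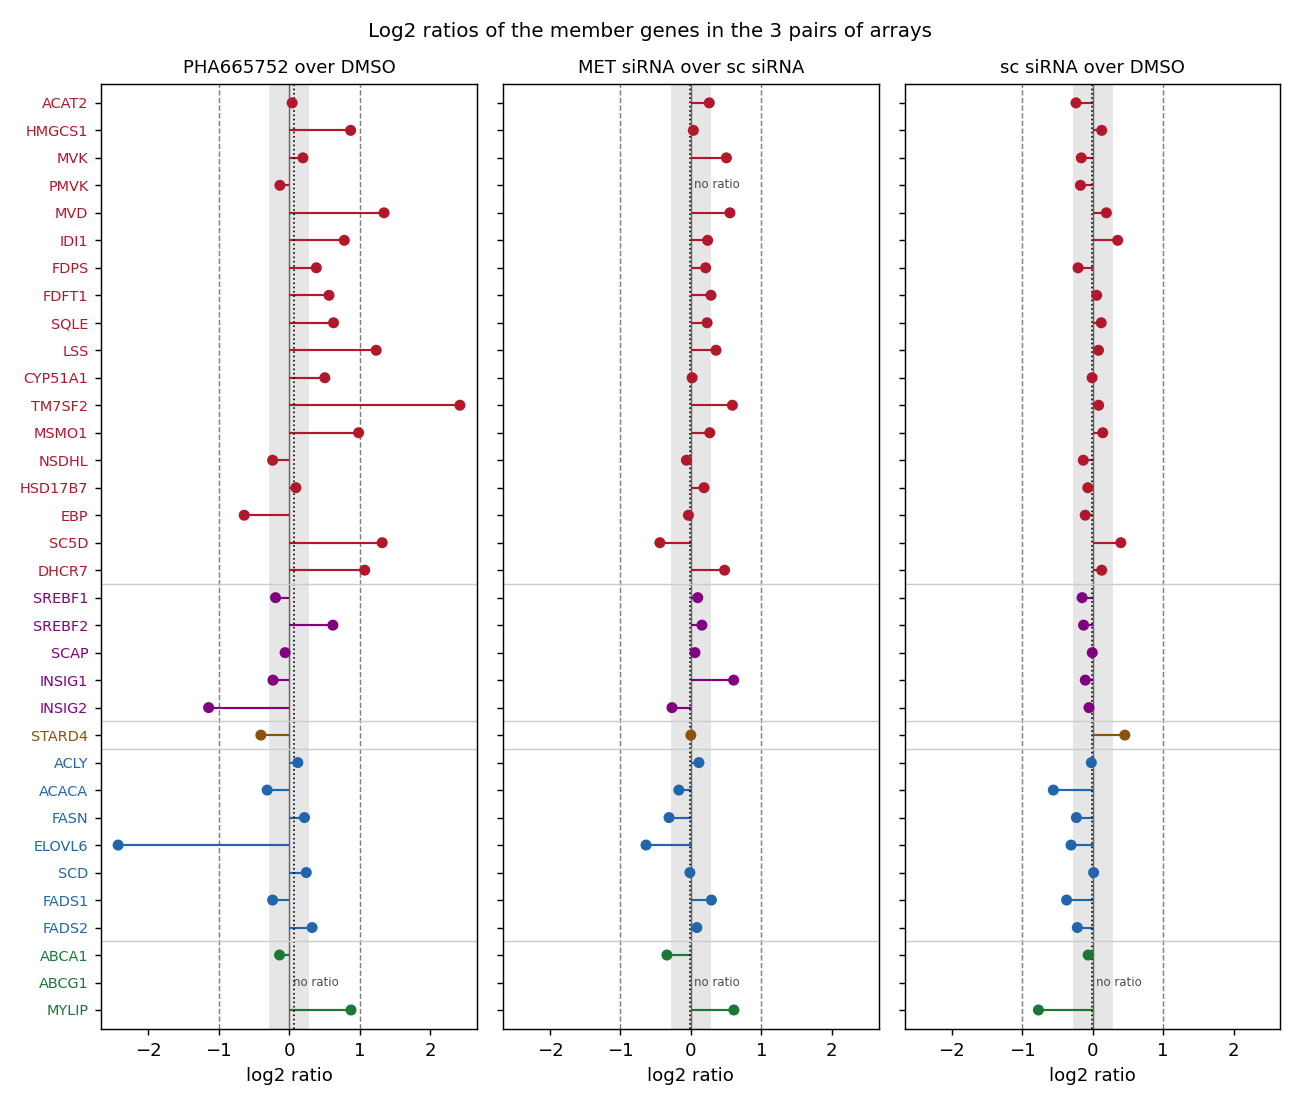
Log2 ratios (horizontal axis) of the 34 genes in PHA665752 over DMSO, MET siRNA over sc siRNA and sc siRNA over DMSO, 1 array each, colored by role (sterol branch red, SREBP regulators purple, sterol transport brown, fatty acid branch blue, LXR targets green). Dashed lines mark 2-fold, the dotted line the median of all genes and the gray band 0.27 on either side of 0, the robust SD between the control arrays; 5 sterol enzymes lie right of the upper dashed line in the first panel and none in the others.

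TM7SF2, a sterol reductase that acts just after lanosterol demethylation, had the highest ratio of the set. Its signal was 68.0 on DMSO, 314 on PHA665752, 60.5 on sc siRNA and 94.1 on MET siRNA, each the mean of 10 spots. The inhibitor array was the highest, MET siRNA was next, and the 2 controls were the lowest and alike. The fold was 5.37 for PHA665752 over DMSO, the 187th highest among all genes by log2 ratio (2.42, SE over spots 0.03, but 1.73 with normexp background correction), and 1.5 for MET siRNA over sc siRNA (log2 ratio 0.59, SE over spots 0.04). The 10 spots ran from 294.5 to 342 on PHA665752 and from 60.3 to 76.7 on DMSO, and from 80.6 to 105 on MET siRNA and 55.6 to 65.1 on sc siRNA, so spots of neither pair overlapped. These spots show the error of reading 1 hybridization and not that of repeating the culture. They cover the RNA of TM7SF2 alone. LBR, a sterol gene outside the set, had log2 ratios of -0.64 for the inhibitor and 0.05 for MET siRNA. It belongs to a list of other sterol and isoprenoid genes, where 4 of 8 with a ratio were above 0 after the inhibitor.

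**Figure D2:**
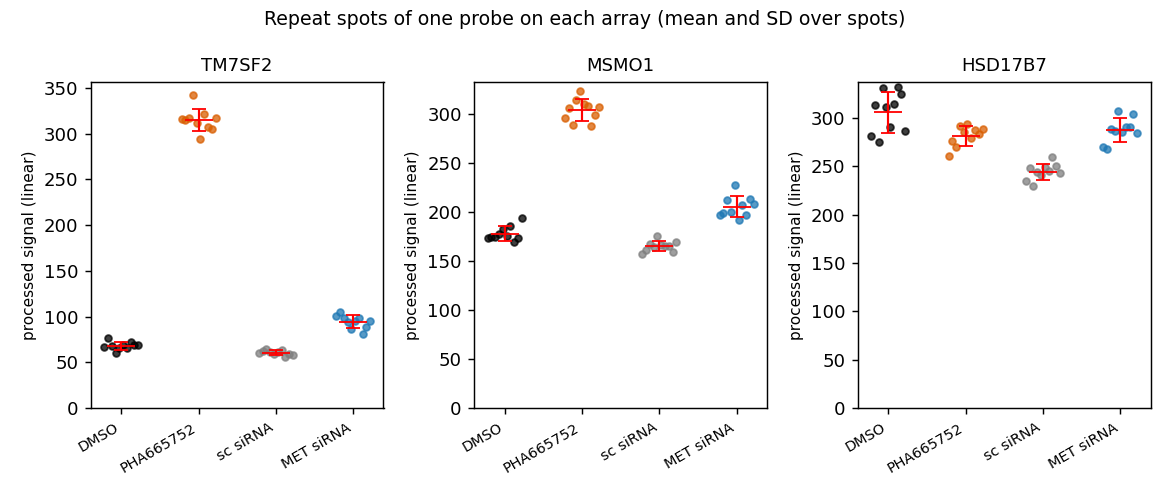
Processed signal (linear axis from 0) of each of the 10 repeat spots for TM7SF2, MSMO1 and HSD17B7 on the 4 arrays, with the mean and SD over spots in red. TM7SF2 and MSMO1 spots on PHA665752 lie above all spots on the other arrays, whereas HSD17B7 spots on DMSO, PHA665752 and MET siRNA overlap.

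Other enzymes of the lower route, from squalene to cholesterol, also had high ratios after the inhibitor, and the median over these 10 enzymes was 0.81. LSS, the cyclase that forms lanosterol, had signals of 4477 on DMSO, 9091 on PHA665752, 3980.4 on sc siRNA and 5266 on MET siRNA, a log2 ratio of 1.24 for the inhibitor and 0.36 for MET siRNA. A dimmer LSS probe gave 1.89 and 0.72. DHCR7, the reductase of the final step, read 15861, 28776, 14554 and 20953 in the same order of arrays, with log2 ratios of 1.07 and 0.48. For both genes the inhibitor array was the highest, MET siRNA was next and the controls were the lowest.

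MSMO1, an oxidase in the removal of sterol methyl groups, stood just under the 2-fold line. Its 10 spots averaged 178 on DMSO, 303 on PHA665752, 165 on sc siRNA and 205 on MET siRNA, log2 ratios of 0.99 and 0.27 with SEs over spots of 0.03 and 0.03. SQLE, the epoxidase that is a rate-limiting step of the route, had log2 ratios of 0.63 and 0.23, and CYP51A1, the lanosterol demethylase, had 0.51 and 0.02. SC5D, a sterol desaturase, was dim, at 38.4 on DMSO, 82.8 on PHA665752, 42.6 on sc siRNA and 32.4 on MET siRNA. Its log2 ratio was 1.32 for the inhibitor but -0.44 for MET siRNA, and under another background correction (normexp) the former was 0.73.

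Not every enzyme of the lower route was higher. HSD17B7, a ketosteroid reductase of the demethylation complex, had log2 ratios of 0.10 for the inhibitor and 0.19 for MET siRNA on its 10-spot probe, and its other 2 probes gave 0.14 and 0.15 for the inhibitor. NSDHL, its partner in demethylation, had -0.23 and -0.06. EBP, the sterol isomerase, read 39208 on DMSO, 21733 on PHA665752, 30597 on sc siRNA and 30853 on MET siRNA, a log2 ratio of -0.64 for the inhibitor and -0.03 for MET siRNA. EBP thus had the lowest ratio of the branch after PHA665752, and its siRNA arrays were alike.

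In the upper route, the 8 enzymes from acetoacetyl-CoA to squalene had a median log2 ratio of 0.48 after PHA665752. MVD, the decarboxylase that yields isopentenyl diphosphate, had signals of 331 on DMSO, 726 on PHA665752, 318 on sc siRNA and 483 on MET siRNA, with log2 ratios of 1.35 and 0.55. HMGCS1, the synthase that makes HMG-CoA, read 482, 762, 443 and 468, with log2 ratios of 0.87 and 0.04. MVD thus was higher in both treatments than in its control array, and the HMGCS1 signal on MET siRNA was close to that on sc siRNA. IDI1, the isomerase of isopentenyl diphosphate, had ratios of 0.78 and 0.24, but its ratio between the controls was 0.36, larger than that of the siRNA pair.

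FDFT1 (squalene synthase) had log2 ratios of 0.57 for the inhibitor and 0.29 for MET siRNA, and FDPS (farnesyl diphosphate synthase) had 0.39 and 0.21. MVK (mevalonate kinase) read 9156 on DMSO, 9045 on PHA665752, 6876 on sc siRNA and 10076 on MET siRNA, log2 ratios of 0.20 and 0.50, so that MVK, unlike MVD, had the larger ratio in the siRNA pair. ACAT2, the thiolase that makes acetoacetyl-CoA, was near 0 after the inhibitor (0.04) and at 0.26 after MET siRNA, about the size of its ratio between the controls (-0.24). PMVK (phosphomevalonate kinase) had -0.13 after the inhibitor and no value on MET siRNA, where its only spot carried an outlier mark.

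**Figure D3:**
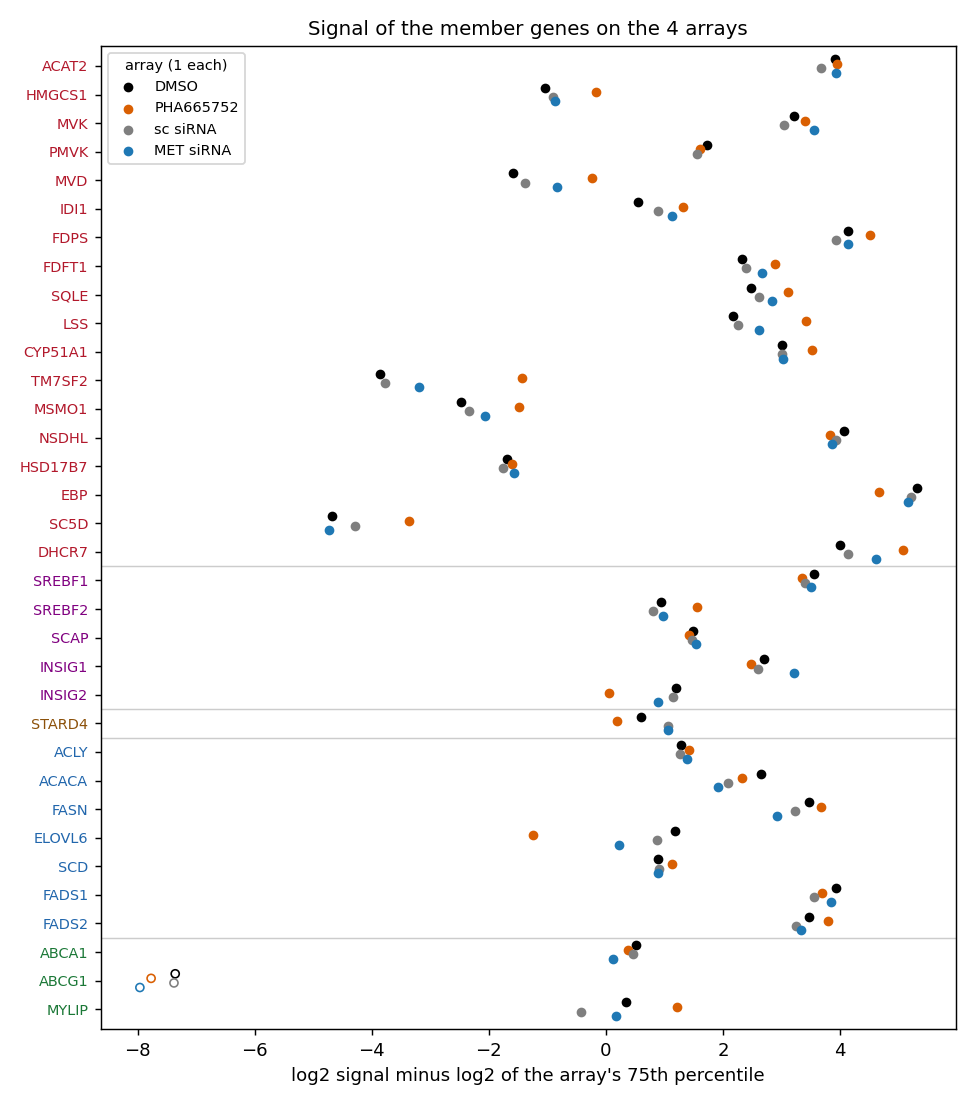
Log2 signal of each gene minus the log2 75th percentile of its array (horizontal axis), 1 point for each of the 4 arrays, with open circles for signals not well above background. Within a row, the orange PHA665752 point lies right of the other 3 points for TM7SF2, MSMO1, LSS, DHCR7 and MVD and far left of them for ELOVL6; rows are different probes and are not on 1 scale.

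After MET siRNA the sterol branch had smaller ratios. The median of its 17 enzymes with a ratio was 0.24 (-0.062 with arrays scaled to the median of probes above background), against -0.02 over 13810 genes, and 14 of 17 were above 0, against 47.0% of all genes. No gene of the set passed 2-fold in this pair in either direction, where 2.04% of all genes were higher and 0.702% lower. The largest upward ratios of the branch were those of TM7SF2 (0.59), MVD (0.55), MVK (0.50) and DHCR7 (0.48), and 7 of 17 enzymes had ratios beyond 0.27 in either direction, against 4285 of 13810 genes. Under that other scaling 5 of 17 were above 0, but the median of all genes was itself at -0.31, and 14 of 17 enzymes lay above it.

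The 2 control arrays, sc siRNA over DMSO, gave the background of the set. Of 33 genes, 12 had a ratio above 0, against 48.5% of all genes, and none passed 2-fold, against 2.83% higher and 1.15% lower over all 14815 genes. The median was 0.07 for the sterol branch and -0.23 for the fatty acid branch. These ratios share their DMSO or sc siRNA array with the other pairs, so the 3 sets of ratios are not independent.

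Of the 5 genes that govern the SREBPs, 4 had ratios below 0 after PHA665752 (median -0.19), and 4 of 5 were above 0 after MET siRNA (median 0.10). SREBF2, which encodes SREBP2, had signals of 1896 on DMSO, 2515 on PHA665752, 1456 on sc siRNA and 1677 on MET siRNA, log2 ratios of 0.62 and 0.16. SREBF1, which encodes SREBP1, had -0.19 and 0.10, and its dimmer probe gave 0.11 and -0.06. After PHA665752 the SREBF2 ratio was more than 0.27 from 0 and on the upper side under all 9 alternatives, whereas SREBF1 was within 0.27 of 0 here and at -0.44 with 50th percentile scaling. SCAP, the escort protein, had -0.06 and 0.06.

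INSIG1 and INSIG2, which retain SCAP and the SREBPs in the endoplasmic reticulum, differed between the pairs. INSIG1, itself a well-known SREBP target, had signals of 6438 on DMSO, 4738 on PHA665752, 5028 on sc siRNA and 7915 on MET siRNA. Its log2 ratio was -0.23 for the inhibitor and 0.61 for MET siRNA, its highest array being MET siRNA. INSIG2 read 2276, 889.6, 1843 and 1582 in the same order, log2 ratios of -1.14 and -0.27. A second INSIG2 probe gave -0.41 for the inhibitor and -0.28 for MET siRNA, so passage of the 2-fold line rested on the brighter probe, although both were below 0. STARD4, a carrier of free cholesterol between membranes and likewise a sterol-regulated gene, had -0.40 and 0.00, with 0.46 between the controls.

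In the fatty acid branch the ratios were centered near those of all genes, with a median over 7 enzymes of 0.12 after PHA665752 (-0.12 with arrays scaled to their 50th percentile) and -0.01 after MET siRNA. ELOVL6, the elongase that extends palmitate to stearate, was the exception, with signals of 2232 on DMSO, 358 on PHA665752, 1515 on sc siRNA and 1007 on MET siRNA. Each treated array was below its control, and PHA665752 was the lowest of the 4. The log2 ratio was -2.43 for the inhibitor, the 135th lowest of all genes, and -0.64 for MET siRNA, the 326th lowest, while the controls differed by -0.31.

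No other enzyme of the branch passed 2-fold. FASN, which makes palmitate, read 10914 on DMSO, 10947 on PHA665752, 7807 on sc siRNA and 6508 on MET siRNA, log2 ratios of 0.22 and -0.31, near the spread of the controls in size, and the former was -0.03 with 50th percentile scaling. SCD, the desaturase that turns stearate into oleate, had 0.24 and -0.01, and ACLY, which supplies acetyl-CoA from citrate, had 0.12 and 0.11. ACACA, the carboxylase that makes malonyl-CoA, had -0.31 and -0.17 and, on its second probe, -0.70 and -0.16, below its control in both pairs, but was also at -0.56 between the controls, the largest control ratio of the branch. FADS1 and FADS2, the desaturases of polyunsaturated fatty acids, had -0.23 and 0.33 after PHA665752 and 0.29 and 0.09 after MET siRNA, and were at -0.37 and -0.22 between the controls.

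The medians of the 2 branches differed by 0.47 after PHA665752 (sterol minus fatty acid, log2) and by 0.25 after MET siRNA. The same difference was 0.30 between the controls. The siRNA and control differences share the sc siRNA array, in opposite places of the ratio, and were not tested against each other.

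**Figure D4:**
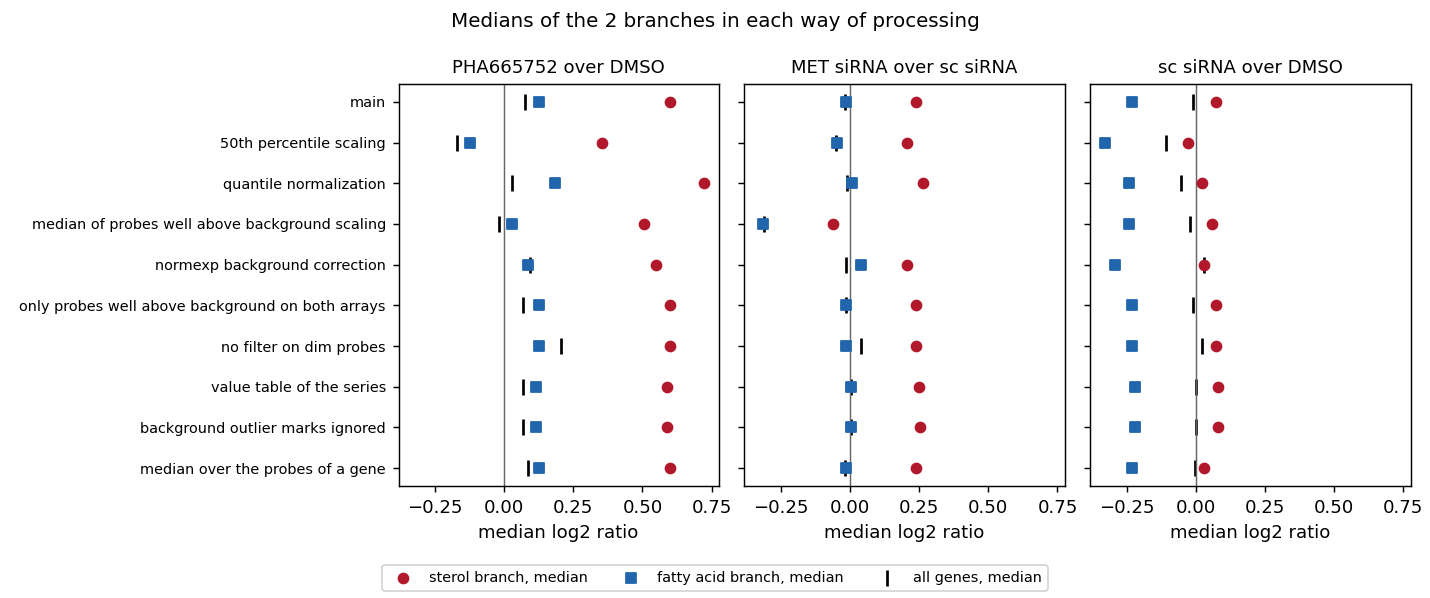
Median log2 ratio (horizontal axis) of the sterol branch (red circles), the fatty acid branch (blue squares) and all genes (black ticks) in each pair of arrays, for the processing used here (main, top row) and 9 alternatives. The sterol median lies right of the tick for all genes in every row of the first 2 panels, and scaling to the median of probes above background shifts all 3 marks left in the siRNA panel.

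Among targets of the LXRs, MYLIP, a ubiquitin ligase that removes lipoprotein receptors, had signals of 1249 on DMSO, 1980.1 on PHA665752, 615 on sc siRNA and 971 on MET siRNA. Its log2 ratios were 0.88 for the inhibitor and 0.61 for MET siRNA, and the controls differed by -0.77, more than the siRNA pair. Each treated array thus was above its own control, but MET siRNA was below DMSO. ABCA1, the pump that loads cholesterol onto apolipoprotein A-I, read 1418, 1113, 1138 and 929.7, with log2 ratios of -0.14 and -0.34, and its second probe gave -0.23 and -0.13. ABCG1, a second cholesterol pump, had signals of 6.04, 3.91, 4.99 and 3.44, not well above background on any array, and has no ratio.

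The inhibitor and siRNA pairs share no array and could be set side by side, although all 4 arrays share a slide. Over the 32 genes with both ratios, Pearson's r was 0.59 and Spearman's rho 0.51, and 24 (75%) had the same sign in both; over 13440 genes r was 0.52 and 69.6% had the same sign. In the sterol branch, 16 of 17 genes (94.1%) had the same sign, with SC5D the exception, but 8 of 17 had it with arrays scaled to the median of probes above background and 12 of 17 at the 50th percentile. Pearson's r was 0.36 over these 17. Over the set, the count was 17 of 32 and 22 of 32 under those scalings. These are descriptions across genes, which are not independent replicates, and the values over the set were close to those over all genes. The other 7 genes of opposite sign were SREBF1, SCAP, INSIG1, STARD4, FASN, SCD and FADS1, of which INSIG1 had the widest gap.

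**Figure D5:**
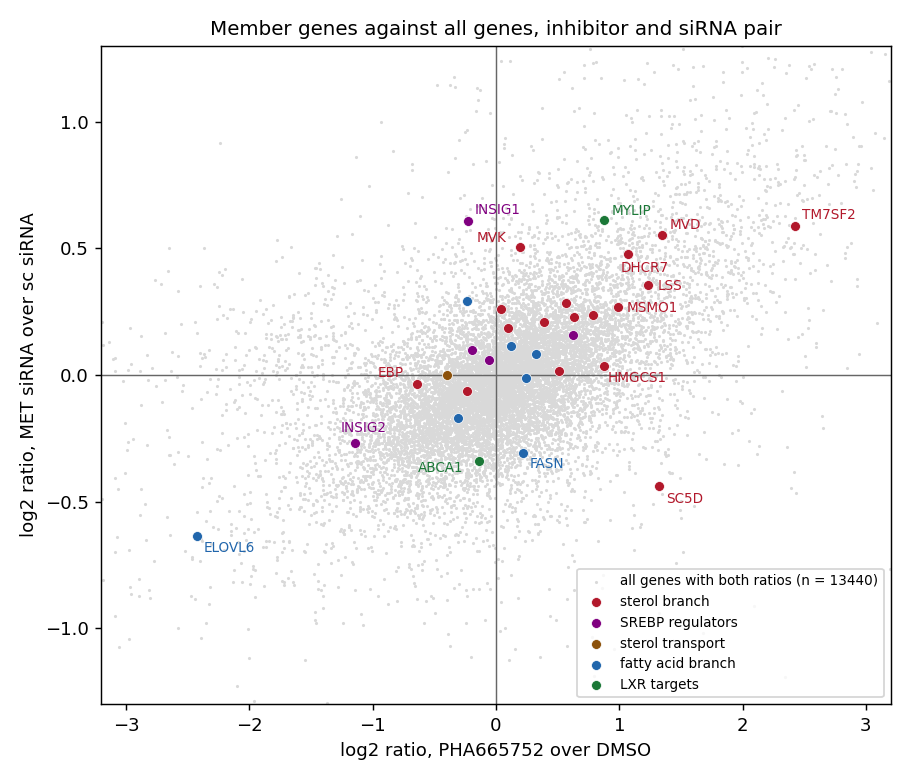
Log2 ratio of PHA665752 over DMSO (horizontal axis) against MET siRNA over sc siRNA (vertical axis) for the 32 genes with both ratios, colored by role, over all 13440 genes in gray; genes beyond the axis limits are not drawn. TM7SF2 lies at 2.42 and 0.59, ELOVL6 at -2.43 and -0.64, and SC5D at 1.32 and -0.44 is the sterol enzyme in the lower right.

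Other genes of the same pathways, 52 in a list made for this purpose, were examined as well, and 48 had a ratio for the inhibitor. Of these, 7 were higher (14.6%) and 3 were lower (6.25%), again near the shares over all genes. The higher ones were ACSS2, which makes acetyl-CoA from acetate (1.54), the stearoyl desaturase SCD5 (1.37), NPC1, which moves cholesterol out of lysosomes (1.37), the sterol hydroxylase CYP27A1 (1.28), NR1H3, which encodes an LXR (1.26), the isoprenoid synthase GGPS1 (1.19) and ERG28, a scaffold of the sterol demethylation enzymes (1.11). The lower ones were PDSS1, which makes the tail of ubiquinone (-2.46), and the lipoprotein receptors VLDLR (-1.40) and LRP8 (-1.32). SCD5 rested on its brightest probe, since another probe above background on all arrays gave 0.34. GGPS1 was dim, at 35.4 on DMSO, 69.6 on PHA665752, 36.5 on sc siRNA and 43.0 on MET siRNA. The count of higher genes was 6 with the median over probes, with normexp and with quantile normalization. Scaling to the 50th percentile gave 5 higher and 5 lower. In the siRNA pair the ratios of these 10 genes ran from -0.73 for PDSS1 to 0.56 for ACSS2, with NPC1 (0.10), NR1H3 (0.18) and GGPS1 (0.19) nearest to 0. After MET siRNA, 1 of the 45 genes with a ratio passed 2-fold, CH25H, an oxysterol-forming hydroxylase, at 1.56. Its signals were 43.0, 36.0, 155 and 472, so the sc siRNA array already was above DMSO by 2.10. The pooled counts hide a sublist of LXR genes, of which 6 of 6 with a ratio were above 0 after PHA665752 (median 0.66). Medians of the other sublists ran from -0.19 to 0.11 in that pair. After MET siRNA 3 of 4 LXR genes were above 0 (median 0.18). These differences between sublists were not tested.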

How the data were processed

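The authors deposited scanner output from Agilent Feature Extraction (version 11.5.1.1 per the file headers) for 4 single-color arrays on 1 slide. Its processed signal, a background-subtracted intensity in linear units, was used, and the deposited value table of the series, also intensity, equals it within 0.06 for all 33128 probes spotted once; probes with 10 spots were not compared. The columns used hold no comparisons by the authors.

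Control spots and outlier-marked spots were left out, log2 signals were averaged over the usable spots of each probe, and each array was centered on its 75th percentile with Python 3.11.15, numpy 2.4.6 and pandas 2.3.3. A ratio was a bound where 1 array was not well above background and absent where neither was. A gene was represented by the probe with values on most arrays, then the highest mean. Of 34127 probes, 75.5% had a symbol from RefSeq accessions or the files. Normexp (offset 50) and quantile alternatives used limma 3.58.1 in R 4.3.3. Motifs came from RefSeq promoters of GRCh38.p14, matched for 29 of the 34 genes.

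Every gene of the set was to be named, and other pathway genes only past 2-fold. LBR, which did not pass it, was named besides. The genes and lists were chosen with earlier results of these data known. No test was possible at 1 array per condition, and their number limits the precision. The calculation was tested on simulated arrays, with large known changes put into bright probes and with spot noise only. That check did not cover dim probes or variation between cultures or hybridizations. The 9 alternatives covered scaling, background, filters, marks and probe choice. A further list of markers is not reported here.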

Additional observations from a re-analysis of the deposited data

Results flagged for a closer look

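SC5D, a sterol desaturase, had a log2 ratio of 1.32 for PHA665752 over DMSO and -0.44 for MET siRNA over sc siRNA, opposite signs with a gap of 1.76, in pairs that share no array. The difference was not tested, since each condition had 1 array. Its single probe was dim on all 4 arrays, with signals from 32.4 to 82.8, and with normexp background correction its ratios were 0.73 and -0.15.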

How the results depend on the processing

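Of the counts and medians recomputed under the 9 alternatives, 157 stayed within 1.5 times the count or within 0.27 (log2) of the median as reported and 5 did not, and of the ratios of single genes 844 stayed within 0.27 and 38 did not. No ratio past 2-fold changed its sign. Scaling to the 50th percentile left 3 genes of the set higher by 2-fold after PHA665752, with LSS at 0.99 and DHCR7 at 0.83, and moved the median of all genes in that pair from 0.08 to -0.17. Scaling to the median of probes above background moved the siRNA median of all genes from -0.02 to -0.31 and gave medians of -0.16 for the set, -0.062 for the sterol branch and -0.31 for the fatty acid branch, so the sign of the first 2 medians rests on the scaling. Relative to all genes, the sterol median lay 0.52 higher after PHA665752 (0.39 to 0.69 over the alternatives) and 0.26 higher after MET siRNA (0.20 to 0.27). Giving each gene the median of its probes left 1 gene lower by 2-fold, since INSIG2 was at -0.77. TM7SF2 was at 1.73 with normexp. For the values that moved with the scaling, the shift is that of all genes; for TM7SF2 and normexp the cause was not tested.

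No paired analysis was possible because each condition had a single array and no replicate to leave out. Normexp was run on median signals.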
